A study of Mus musculus with 15 samples.

Results

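The proteasome genes described here are the protein-coding genes of the deposited expression table whose symbols follow the pattern Psma to Psmg with a number, leaving out the immunoproteasome genes Psmb8 and Psmb9. The rule found 48 of the 32152 genes in the table. They include 7 alpha and 7 beta subunits of the core and 6 ATPase and 11 non-ATPase subunits of the cap. Further members are 3 cap chaperones, 4 core chaperones, 5 activator and inhibitor genes and 3 tissue-specific core subunits. The other 2 matches are set apart. Psmc3ip is a recombination protein that binds a proteasome ATPase and is no proteasome subunit. Psme2b is a near copy of Psme2, so the split of reads between the pair is uncertain.

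The samples are mouse embryonic stem cells of strain C57BL/6, the cultured counterpart of the early embryo's pluripotent cells, grown in serum with leukemia inhibitory factor in every group. Cells received 1 nM or 10 nM oligomycin, an inhibitor of the mitochondrial ATP synthase, or 5 mM or 10 mM 2-deoxyglucose (2-DG), a glucose analogue that blocks glycolysis, each for 48 h, or were mock treated, with 3 samples in each of the 5 groups. In the series' design the doses stand for a weak and a strong block of mitochondrial respiration (oligomycin) or of glycolysis (2-DG), so the comparisons ask what each block does to the transcriptome. The labels give no time for the mock samples, name no clone and no feeder layer, and do not say whether replicates were separate cultures. The p-values therefore measure only the spread between these samples, which may be technical.

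The proteasome degrades proteins tagged with ubiquitin. Its core is a barrel of stacked rings, alpha subunits outside and beta subunits inside, and 3 of the beta subunits (Psmb5, Psmb6 and Psmb7) carry the catalytic sites. A cap sits on the barrel, with a ring of ATPases that unfold the substrate and non-ATPase subunits that bind ubiquitin, remove it and hold the cap together. Dedicated chaperones assemble both parts, activators such as PA28 and PA200 can replace the cap, and in mammals the transcription factor NFE2L1 raises proteasome gene transcription when proteasome activity is low. Pluripotent stem cells are known for high proteasome activity.

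Promoters show what the members share in sequence. RefSeq promoters (GRCm38.p6, 250 bases before to 50 bases after the start) matched 40 of the 48 members, and they were searched on both strands. The ETS letters CCGGAAG lay in 15 of the 40 members' promoters (37.5%), against 9.93% of all 27025 genes with a promoter and 20.4% of the 9378 of them that were tested. The core of the antioxidant response element, TGACNNNGC, to which NFE2L1 binds, lay in 6 members (15%), against 14% of all genes and 16.9% of tested genes. The GC box GGGCGG lay in 55% of members and in 38.2% of all genes and 71% of tested genes, and CCAAT in 35% of members, 41.1% of all genes and 43.3% of tested genes. The cyclic AMP response letters TGACGTCA lay in 0 members, 2.03% of all genes and 3.71% of tested genes. A match describes these letters in this window and is no evidence of binding.

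The stretches below are shown because they hold these letters in members that carry the comparisons: Psmb5, a core subunit that differs between the drugs, Psmc6, which passed the test in no comparison with mock, and a cap subunit, an activator and a chaperone that fell with oligomycin. Capitals mark the matched letters, and each line runs 5′ to 3′ on the gene's strand, ending at or before the annotated start. The antioxidant letters begin at position -47 from the start in Psmb5 (chr14:54618004-54618072, minus strand) and, in the reverse orientation, at -227 in Psmc6 (chr14:45329574-45329635, plus strand). The ETS letters begin at -100 in Psmc6 (chr14:45329694-45329760, plus strand), at -107 in Psme3 (chr11:101316076-101316142, plus strand) and at -69 in Psmg1 (chr16:95990993-95991059, minus strand). In Psmd2 they lie in the reverse orientation at -26 (chr16:20651596-20651651, plus strand). No printed match overlaps another searched motif.
Psmb5, antioxidant letters: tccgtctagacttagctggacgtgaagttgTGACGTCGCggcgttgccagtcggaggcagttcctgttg
Psmc6, antioxidant letters: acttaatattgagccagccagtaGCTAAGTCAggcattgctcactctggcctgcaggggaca
Psmc6, ETS letters: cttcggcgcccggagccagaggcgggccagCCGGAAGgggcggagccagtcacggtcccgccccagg
Psmd2, ETS letters: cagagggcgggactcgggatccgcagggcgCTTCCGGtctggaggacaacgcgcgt
Psme3, ETS letters: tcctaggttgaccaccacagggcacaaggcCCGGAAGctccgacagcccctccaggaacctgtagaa
Psmg1, ETS letters: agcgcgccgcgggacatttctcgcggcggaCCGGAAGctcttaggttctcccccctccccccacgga

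Values are FPKM, fragment counts scaled for gene length and sequencing depth, as the authors deposited them. Most low values fell on whole reads when all annotated exon bases of a gene were taken as its length. Levels of different genes therefore depend on that annotation, and most abundant below means highest in FPKM. The steps between low values put the depth at 17400000 to 19200000 reads per sample. Genes reaching 1 FPKM in 3 or more samples were tested, which left 13284 genes, among them 46 of the 48 members, and set aside Psmb11 and Psmg3. Changes below are differences of mean log2(FPKM + 1) with their SE from one limma model over all 15 samples, called at an adjusted p under 0.05 (Benjamini-Hochberg over all tested genes). A change on this scale understates that of genes near 1 FPKM. The comparisons with mock share the 3 mock samples. Gene coordinates are those of the deposited table (GRCm38).

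One library stood apart. Replicate 1 of 10 nM oligomycin deviated most from its group, with a root mean square of 0.181 on the log2 scale, against 0.106 to 0.145 in the other 14 samples. Its deviations rose with exon length (rho = 0.52 by rank over 13275 genes, a description since genes are no replicates). Its core and cap genes were also the lowest of all samples by median and by sum, though not each gene singly. Results of the 10 nM group are therefore given with and without this library.

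The cultures carried markers of more than stem cells. The 11 stem cell markers summed to 1185 to 1280 FPKM in 1 nM oligomycin, 470 to 608 in 10 nM oligomycin, 1793 to 1886 in 5 mM 2-DG and 1616 to 1647 in 10 mM 2-DG, against 2080 to 2271 in mock. The 25 fibroblast markers summed to 5173 to 5441, 6955 to 7772, 2117 to 2284 and 2428 to 2609 FPKM in those groups, against 2283 to 2417 FPKM in mock. Of the 24 tested fibroblast markers, 21 were called higher at 1 nM and 23 at 10 nM oligomycin (21 without replicate 1), and all 11 stem cell markers were called lower at both doses. With 2-DG the stem cell markers were split, with 3 higher and 3 lower at 5 mM (median log2 change 0.01). At 10 mM 2-DG, 2 were higher and 5 lower (median -0.16). Of the fibroblast markers, 2 were higher and 6 lower at 5 mM 2-DG, and 6 higher and 5 lower at 10 mM. The 13 macrophage markers summed to 188 to 240, 218 to 230, 95.3 to 97.5 and 87.9 to 90.7 FPKM, against 173 to 194 FPKM in mock. Of them 9 were called lower at 5 mM and 8 at 10 mM 2-DG, and 1 was called higher at each dose. With oligomycin 6 were higher and 3 lower at 1 nM, and 8 higher and 3 lower at 10 nM (5 and 3 without replicate 1). Over all tested genes, 29.8% were higher and 33.2% lower at 1 nM, and 34% and 41.7% at 10 nM oligomycin. At 5 mM 2-DG 15% were higher and 20.3% lower, and at 10 mM 21.4% and 26.8%. All marker counts are read beside these shares, and those of the fibroblast markers with 2-DG lay near them. The sums weigh abundant markers most. In mock samples the stem cell marker Dppa5a alone had a mean of 740 FPKM. The fibroblast marker Acta2 had 577 FPKM and the macrophage marker Lyz2 95.1 FPKM. The fibroblast marker S100a4 was listed at 0 in all samples of 1 nM oligomycin and of 5 mM 2-DG. No macrophage or stem cell marker was listed at 0 in all samples of a group. The part of these shifts in the results below was not tested, and in bulk RNA fewer cells of a type and less RNA per cell cannot be told apart.

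In mock cells the core subunits ranged from 33.1 ± 1.66 FPKM for Psmb7 to 177 ± 9.63 FPKM for Psmb1 (SD, n = 3). Cap subunits ran from 32.7 ± 2.2 FPKM for Psmc2 to 154 ± 2.97 FPKM for Psmc1. The alpha subunits ran from 40.1 ± 1.07 FPKM for Psma3 to 156 ± 4.25 FPKM for Psma6. The annotated exons of these genes hold 3894 and 1234 bases, and the part of this length in the range was not tested. Chaperones ranged from 0.778 ± 0.0909 FPKM for Psmg3 to 41.5 ± 3.6 FPKM for Psmg2. Among activators Psme3 led with 95.6 ± 1.69 FPKM, and the inhibitor gene Psmf1 had 7.02 ± 0.443 FPKM. The immunoproteasome subunit Psmb10 had 10.8 ± 0.833 FPKM and the testis subunit Psma8 5.76 ± 0.437 FPKM. The thymus subunit Psmb11 did not exceed 0.0263 FPKM in any sample, which corresponds to 2 reads or fewer.

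**Figure D1:**
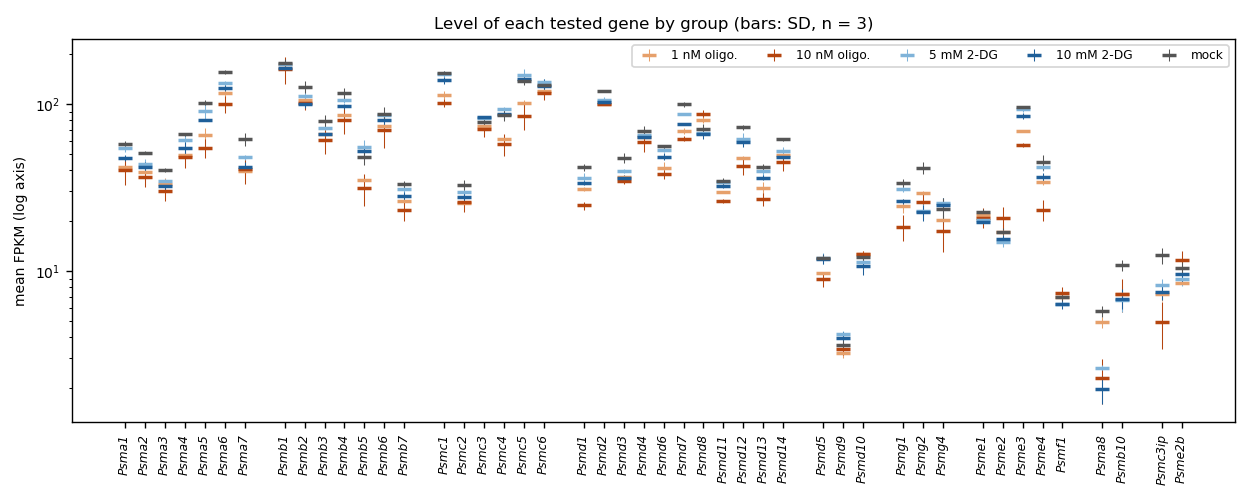
Mean FPKM of each tested proteasome gene (log axis) in 1 nM and 10 nM oligomycin, 5 mM and 10 mM 2-DG and mock samples, with bars for the SD of 3 samples. Mock means of core and cap genes run from 32.7 FPKM (Psmc2) to 177 FPKM (Psmb1), most chaperones and the tissue-specific subunits lie lower, and the mock mark tops most core and cap columns.

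Summed over the 31 core and cap genes, the level was 2128, 1968 and 1976 FPKM in 1 nM oligomycin, and 1635, 2036 and 1974 FPKM in 10 nM oligomycin. It was 2345, 2478 and 2323 FPKM in 5 mM 2-DG and 2172, 2249 and 2242 FPKM in 10 mM 2-DG, against 2427, 2536 and 2639 FPKM in mock. The 3 samples of both oligomycin groups and of 10 mM 2-DG lay under every mock sample, while 5 mM 2-DG overlapped mock. Summed FPKM over all 13284 tested genes was 283274 to 323853 in the 12 treated samples and 298140 to 319313 in mock.

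**Figure D2:**
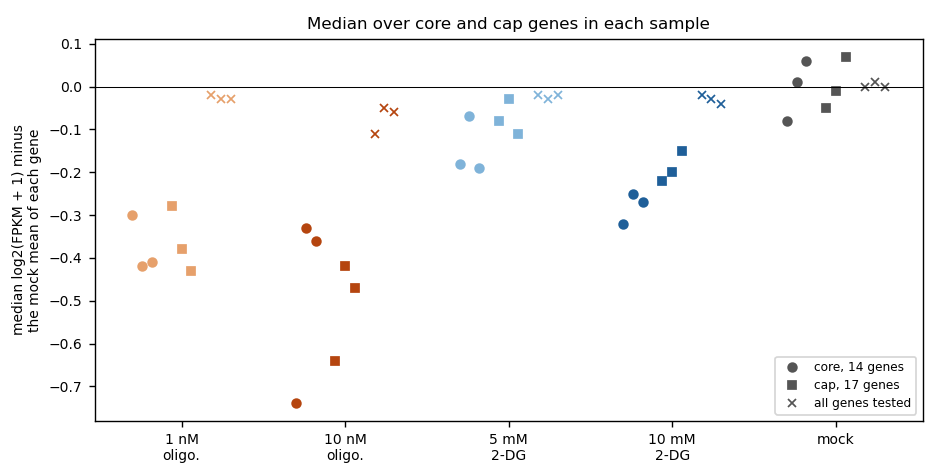
Median over 14 core genes (circles), 17 cap genes (squares) and all 13284 tested genes (crosses) of log2(FPKM + 1) minus each gene's mock mean, 1 point per sample. All genes stay between -0.11 and 0.01, core and cap medians of the oligomycin samples lie between -0.28 and -0.74, and 10 nM oligomycin replicate 1 is the lowest.

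Most proteasome genes were lower with oligomycin. At 1 nM, 33 of the 46 tested members were called lower (71.7%, against 33.2% of all tested genes) and 1 was called higher (2.17%, against 29.8%). The members' median log2 change was -0.36, beside -0.03 over all tested genes. At 10 nM, 36 were called lower (78.3%, against 41.7%) and 2 higher (4.35%, against 34%), with a median of -0.47 beside -0.08. Without replicate 1 of 10 nM oligomycin, 33 were called lower and 3 higher, and the members' median was -0.37: Psmb6, Psmd4 and Psmg4 lost their calls and Psme2b became higher. At both doses 32 members were called lower, 25 of them core or cap subunits. Over all tested genes this joint share was not counted, and it cannot exceed the 33.2% called lower at 1 nM.

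All 7 alpha subunits, which form the outer rings and the gate of the core, fell at both doses, with changes of -0.26 to -0.64 at 1 nM and -0.40 to -0.89 at 10 nM. The smallest change, that of Psma3 at 1 nM, was not called without 1 nM replicate 3 (limma, adjusted p = 0.064). Psma5 (chr3:108256926-108279974) had 72.6, 61.4 and 60.4 FPKM in 1 nM oligomycin and 46.3, 59.5 and 58 FPKM in 10 nM oligomycin, against 97.7, 104 and 103 FPKM in mock. Every oligomycin sample lay under every mock sample. The log2 change was -0.64 ± 0.10 at 1 nM (limma, adjusted p = 5.3e-05) and -0.89 ± 0.10 at 10 nM (limma, adjusted p = 1.1e-06; -0.78 without replicate 1). Psma7 (chr2:180036373-180042433) had 41.6, 39.8 and 38.2 FPKM in 1 nM oligomycin and 32.2, 46.9 and 43.2 FPKM in 10 nM oligomycin, against 57, 59.9 and 67.4 FPKM in mock. It fell by 0.61 ± 0.11 and 0.59 ± 0.11 on the log2 scale (limma, adjusted p = 0.00023 and 0.00018), with no overlap of the samples. Without replicate 1 its 10 nM change was -0.44. Psma6 (chr12:55384222-55418454), the most abundant alpha subunit, had 122, 111 and 114 FPKM in 1 nM oligomycin and 87.1, 108 and 106 FPKM in 10 nM oligomycin, against 151, 159 and 157 FPKM in mock. The samples again did not overlap, at changes of -0.42 ± 0.07 and -0.64 ± 0.07 (limma, adjusted p = 0.00016 and 1.8e-06; -0.54 at 10 nM without replicate 1).

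Of the 7 beta subunits, which line the inner rings, 5 fell at 1 nM and 6 at 10 nM. The Psmb3 call at 1 nM (-0.25 ± 0.10, limma, adjusted p = 0.036) was lost on leaving out any 1 of the 6 samples except mock replicate 1 (0.051 to 0.15) and after quantile normalization (0.12). Psmb5 (chr14:54614120-54617995), the subunit with the chymotrypsin-like site, had 35.3, 35.5 and 34 FPKM in 1 nM oligomycin and 23.6, 35.7 and 34.4 FPKM in 10 nM oligomycin, against 43.1, 48.4 and 53.1 FPKM in mock. Both oligomycin groups lay wholly under mock. Its change was -0.45 ± 0.13 at 1 nM (limma, adjusted p = 0.0064) and -0.63 ± 0.13 at 10 nM (limma, adjusted p = 0.0004; -0.44 without replicate 1). Of its exon bases 12.1% are shared with the microRNA gene Mir686. The trypsin-like subunit Psmb7 fell by 0.33 ± 0.10 and 0.50 ± 0.10 (limma, adjusted p = 0.0078 and 0.00027; -0.37 at 10 nM without replicate 1). The caspase-like subunit Psmb6 was not called at 1 nM (-0.25 ± 0.12, limma, adjusted p = 0.097), and its call at 10 nM rested on single libraries, replicate 1 among them. It was -0.34 ± 0.12 (limma, adjusted p = 0.022 with it, -0.15 and 0.085 without; 0.092 without mock replicate 3).
Psmb1 (chr17:15475721-15498276), the most abundant core subunit, had 186, 170 and 165 FPKM in 1 nM oligomycin and 127, 180 and 180 FPKM in 10 nM oligomycin, against 167, 177 and 186 FPKM in mock. The groups overlapped and neither dose was called (limma, adjusted p = 0.83 at 1 nM and 0.25 at 10 nM; 0.69 at 10 nM without replicate 1), although quantile normalization called it lower at 10 nM.

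In the ATPase ring of the cap Psmc1, Psmc2, Psmc4 and Psmc5 fell at both doses, while Psmc3 and Psmc6 passed the test at neither. No test compared the subunits with each other. Their changes were -0.07 ± 0.06 and -0.14 ± 0.06 for Psmc3 and -0.11 ± 0.08 and -0.17 ± 0.08 for Psmc6 (limma, adjusted p = 0.35 and 0.066 for Psmc3, 0.24 and 0.071 for Psmc6; -0.06 and -0.10 at 10 nM without replicate 1). Quantile normalization called Psmc6 lower at 10 nM, and without 10 nM replicate 2 all 6 ATPases were called lower. Psmc1 (chr12:100110154-100123405), the most abundant cap subunit, had 119, 108 and 111 FPKM in 1 nM oligomycin and 94.5, 103 and 105 FPKM in 10 nM oligomycin, against 153, 152 and 158 FPKM in mock. Its samples did not overlap, and its mean was 0.73 and 0.655 times that of mock. The log2 changes were -0.45 ± 0.06 and -0.61 ± 0.06 (limma, adjusted p = 1.1e-05 and 2.6e-07; -0.56 at 10 nM without replicate 1). Psmc5 (chr11:106256154-106263120) had 107, 99.1 and 96.6 FPKM in 1 nM oligomycin and 67.8, 95.8 and 91.9 FPKM in 10 nM oligomycin, against 128, 138 and 144 FPKM in mock. All 6 treated samples were lower than mock, with changes of -0.44 ± 0.10 and -0.69 ± 0.10 (limma, adjusted p = 0.0021 and 2.8e-05; -0.54 at 10 nM without replicate 1).

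Among the 11 non-ATPase subunits of the cap, 9 fell at 1 nM and 10 at 10 nM, and 1 rose at both. Psmd2 (chr16:20651652-20663414), a scaffold that docks ubiquitin shuttles, had 98.6, 99.3 and 101 FPKM in 1 nM oligomycin and 101, 98.6 and 98.5 FPKM in 10 nM oligomycin, against 119, 119 and 118 FPKM in mock. The samples were separate and the falls nearly equal, 0.25 ± 0.04 and 0.26 ± 0.04 (limma, adjusted p = 0.00013 and 6.1e-05; -0.27 at 10 nM without replicate 1). Psmd7 (chr8:107580381-107588464), the partner of the cap's deubiquitinase, had 72.6, 67.4 and 67.9 FPKM in 1 nM oligomycin and 59.4, 62.7 and 64.2 FPKM in 10 nM oligomycin, against 96.3, 102 and 103 FPKM in mock. It fell by 0.53 ± 0.05 and 0.68 ± 0.05 (limma, adjusted p = 3.1e-07 and 6.9e-09; -0.65 at 10 nM without replicate 1), with all 6 samples under mock. Psmd14, the deubiquitinase itself, fell by 0.30 ± 0.08 and 0.45 ± 0.08 (limma, adjusted p = 0.0036 and 8.6e-05; -0.36 at 10 nM without replicate 1).
Psmd12, a structural subunit of the cap's lid, fell by 0.60 ± 0.08 and 0.76 ± 0.08 (limma, adjusted p = 1.7e-05 and 7.3e-07; -0.67 at 10 nM without replicate 1). Psmd1, the other large scaffold, fell by 0.42 ± 0.05 and 0.73 ± 0.05 (limma, adjusted p = 1.6e-05 and 2.2e-08; -0.77 without replicate 1). The ubiquitin receptor Psmd4 (chr3:95032694-95042614) had 67, 60.6 and 63.4 FPKM in 1 nM oligomycin and 50.8, 64.8 and 62.3 FPKM in 10 nM oligomycin, against 63.9, 70.1 and 73.5 FPKM in mock. Its groups overlapped, and its 10 nM call was lost without replicate 1 (-0.22 ± 0.08, limma, adjusted p = 0.018 with it, -0.12 and 0.071 without) and without mock replicate 3 (adjusted p = 0.075).

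Psmd8, another lid subunit, went the other way. Psmd8 (chr7:29174188-29180701) had 85.1, 79.5 and 77.5 FPKM in 1 nM oligomycin and 82.5, 90.4 and 89.2 FPKM in 10 nM oligomycin, against 66.1, 70.1 and 76.3 FPKM in mock. Every oligomycin sample exceeded every mock sample. It rose by 0.19 ± 0.06 at 1 nM (limma, adjusted p = 0.017; 0.085 without mock replicate 1 and 0.074 without 1 nM replicate 1) and by 0.30 ± 0.06 at 10 nM (limma, adjusted p = 0.00052; 0.34 without replicate 1).

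**Figure D3:**
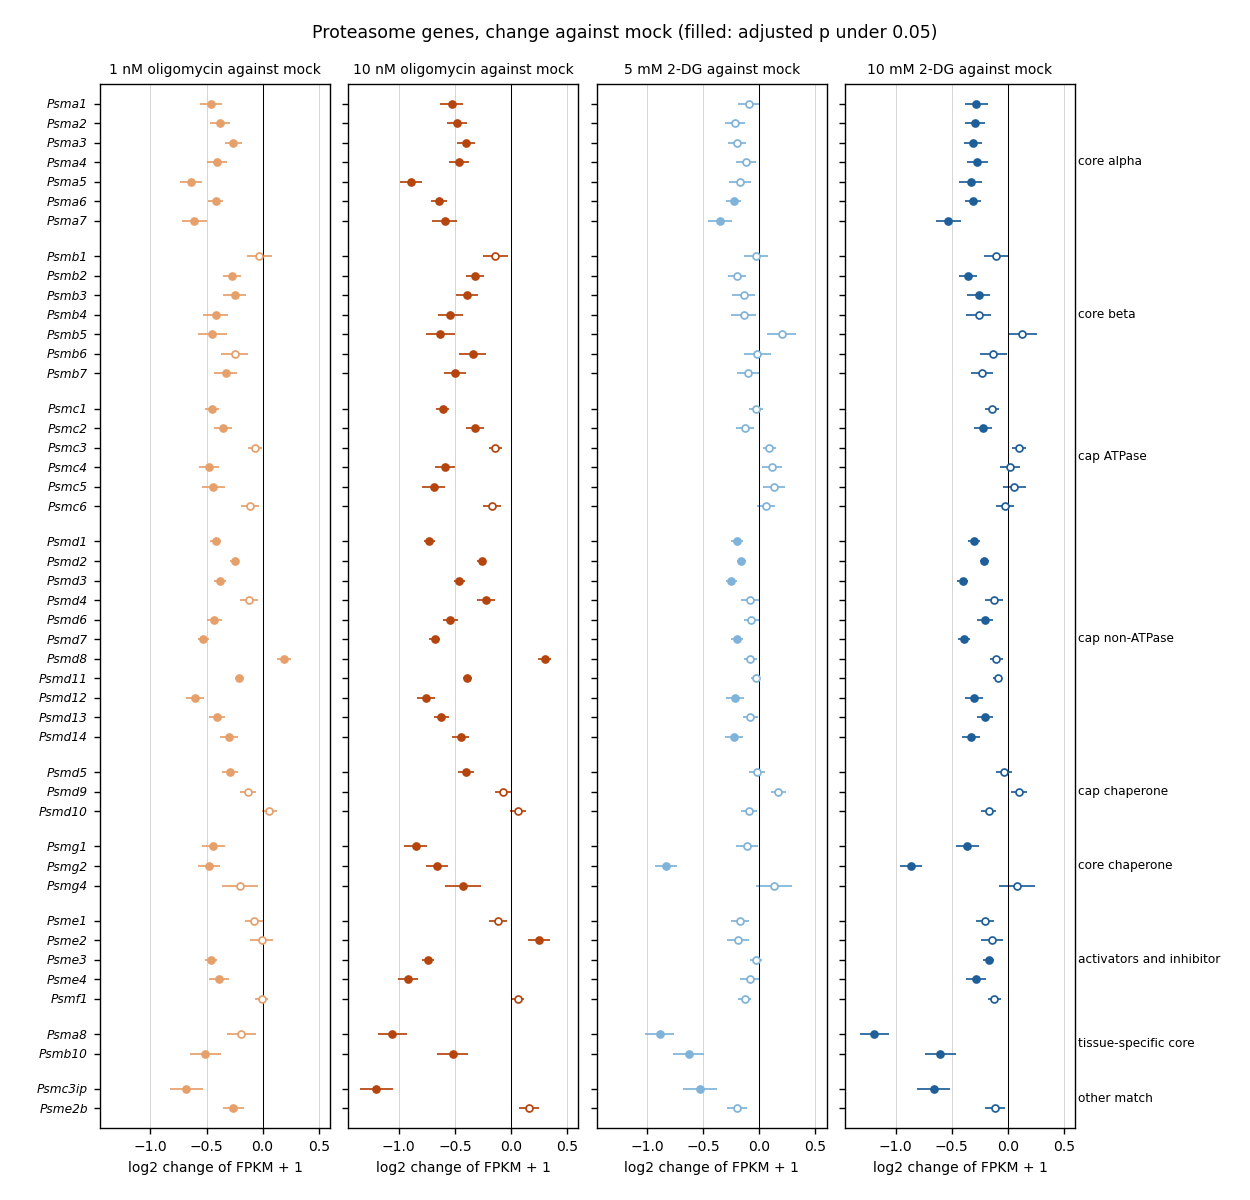
Log2 change of FPKM + 1 against mock for the 46 tested genes in 4 panels (1 nM and 10 nM oligomycin, 5 mM and 10 mM 2-DG), with bars for the SE; filled points have an adjusted p under 0.05. Both oligomycin panels lie mostly left of 0, Psmd8 lies right of 0 in both, and the 2-DG panels lie closer to 0 with Psma8 and Psmg2 far left.

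Of the 3 tested core chaperones, Psmg1 and Psmg2, which together build the alpha ring, fell at both doses, and Psmg4 was called at 10 nM. Psmg1 (chr16:95979933-95990960) had 26.8, 22.1 and 25 FPKM in 1 nM oligomycin and 14.7, 20.5 and 20.1 FPKM in 10 nM oligomycin, against 31.4, 34.9 and 34.8 FPKM in mock. The samples did not overlap, and the change was -0.44 ± 0.10 at 1 nM and -0.85 ± 0.10 at 10 nM (limma, adjusted p = 0.002 and 3.4e-06; -0.70 at 10 nM without replicate 1). Psmg2, the most abundant chaperone, had 30.1, 28.6 and 29.3 FPKM in 1 nM oligomycin and 22.1, 26.9 and 28.7 FPKM in 10 nM oligomycin, against 39.9, 39 and 45.6 FPKM in mock. Every treated sample was lower, at -0.48 ± 0.10 and -0.66 ± 0.10 (limma, adjusted p = 0.00088 and 3.5e-05; -0.56 at 10 nM without replicate 1). Psmg3 stayed under the filter at 0.308, 0.528 and 0.542 FPKM in 1 nM oligomycin and 0.373, 0.557 and 0.48 FPKM in 10 nM oligomycin, against 0.805, 0.677 and 0.852 FPKM in mock, from 17 to 43 reads per sample over the series. Of the cap chaperones, which guide the ATPases into a ring, Psmd5 fell at both doses (-0.29 ± 0.07 and -0.40 ± 0.07, limma, adjusted p = 0.0025 and 0.00013; -0.33 at 10 nM without replicate 1). Psmd9 (-0.13 ± 0.07 and -0.07 ± 0.07) and Psmd10 (0.06 ± 0.07 at both) passed at neither dose (-0.02 and 0.08 at 10 nM without replicate 1). Of the exon bases of Psmd9, 25.5% are shared with a gene on the opposite strand. Whether counting used the strand is not given in the sources used here.

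The activators moved apart. Psme3, the nuclear form of PA28, and Psme4, which encodes PA200, fell at both doses. Psme4 (chr11:30771726-30880361) had 33, 35.5 and 33.4 FPKM in 1 nM oligomycin and 27.1, 21 and 21.6 FPKM in 10 nM oligomycin, against 49, 45.9 and 39.9 FPKM in mock. All 6 samples lay under mock, at -0.39 ± 0.09 and -0.92 ± 0.09 (limma, adjusted p = 0.0021 and 4.6e-07; -1.04 at 10 nM without replicate 1). Psme3 (chr11:101316213-101323537) had 69.5, 69.4 and 68.4 FPKM in 1 nM oligomycin and 57.9, 55.1 and 57.7 FPKM in 10 nM oligomycin, against 96.6, 93.7 and 96.6 FPKM in mock. Every treated sample again lay under mock, and it fell by 0.46 ± 0.05 and 0.74 ± 0.05 (limma, adjusted p = 1e-06 and 2.8e-09; -0.75 at 10 nM without replicate 1).
Psme2 (chr14:55587441-55591113), 1 of the 2 chains of the interferon-inducible PA28, had 18.8, 15.5 and 17.2 FPKM in 1 nM oligomycin and 17, 22.5 and 22.9 FPKM in 10 nM oligomycin, against 16.4, 17 and 18.1 FPKM in mock. Replicate 1 of 10 nM overlapped mock and the other 2 samples were higher. The change was -0.01 ± 0.10 at 1 nM and 0.25 ± 0.10 at 10 nM (limma, adjusted p = 0.96 and 0.031; 0.38 and 0.00043 at 10 nM without replicate 1). The call was lost without mock replicate 1 or 2 or 10 nM replicate 2 or 3 (limma, adjusted p = 0.093, 0.07, 0.12 and 0.14). Its near copy Psme2b fell at 1 nM (-0.26 ± 0.09, limma, adjusted p = 0.021; 0.099 without mock replicate 3 and 0.058 without 1 nM replicate 3) and was not called at 10 nM (0.16 ± 0.09, adjusted p = 0.13) unless replicate 1 was left out (0.23, adjusted p = 0.039). The other PA28 chain, Psme1, and the inhibitor Psmf1 passed at neither dose (limma, adjusted p = 0.17 to 0.95).

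Psmb10 (chr8:105935735-105938444), the trypsin-like subunit that replaces Psmb7 in the immunoproteasome, had 8.24, 6.69 and 7.03 FPKM in 1 nM oligomycin and 5.66, 7.47 and 8.86 FPKM in 10 nM oligomycin, against 10.2, 10.6 and 11.8 FPKM in mock. Its samples did not overlap at either dose (-0.51 ± 0.14 and -0.52 ± 0.14, limma, adjusted p = 0.0048 and 0.003; -0.37 at 10 nM without replicate 1). Psma8, an alpha subunit of the testis proteasome, had 4.68, 4.77 and 5.36 FPKM in 1 nM oligomycin and 1.56, 2.95 and 2.36 FPKM in 10 nM oligomycin, against 6.15, 5.29 and 5.86 FPKM in mock. It overlapped mock at 1 nM (-0.19 ± 0.13, limma, adjusted p = 0.22) and fell at 10 nM (-1.06 ± 0.13, adjusted p = 4e-06; -0.89 without replicate 1). The recombination gene Psmc3ip (chr11:101091823-101095436) had 7.56, 7.87 and 6.57 FPKM in 1 nM oligomycin and 3.35, 6.47 and 5.05 FPKM in 10 nM oligomycin, against 11.6, 11.7 and 13.9 FPKM in mock. It lay under mock in all 6 samples (-0.68 ± 0.15 and -1.20 ± 0.15, limma, adjusted p = 0.0012 and 4.9e-06; -0.99 at 10 nM without replicate 1). Of its exon bases 21.2% are shared with Mlx on the opposite strand.

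**Figure D4:**
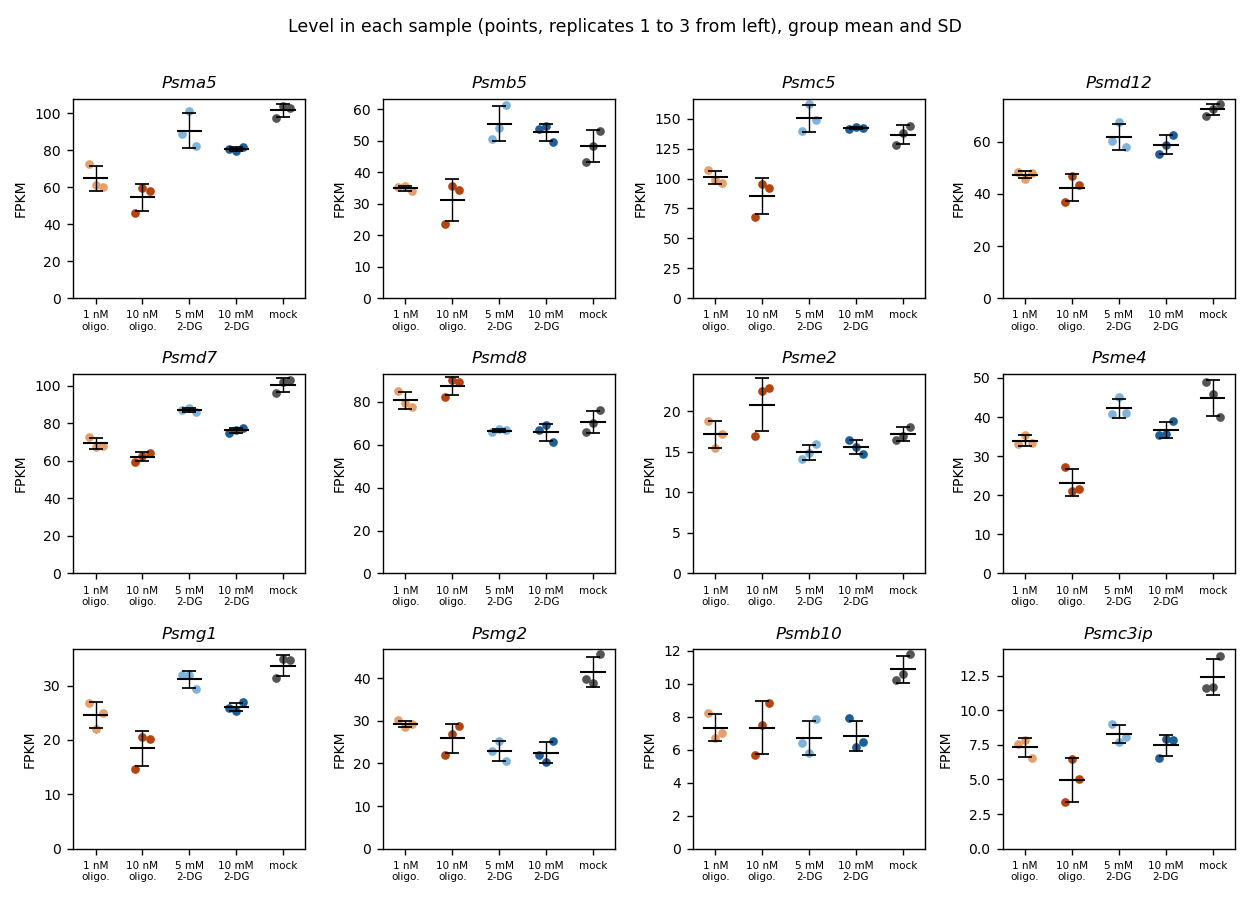
FPKM in each sample (points) with the group mean and SD (lines) for 12 proteasome genes, groups from left: 1 nM and 10 nM oligomycin, 5 mM and 10 mM 2-DG, mock. Psma5, Psmd7, Psme4 and Psmg1 step down with oligomycin, Psmb5 and Psmc5 are lower with oligomycin and overlap mock in 5 mM 2-DG, Psmd8 is higher with oligomycin, and Psmg2 and Psmb10 are lower in all 4 treatments.

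With 2-DG fewer members changed. At 5 mM, 12 of the 46 tested members were called lower (26.1%, against 20.3% of all tested genes), a share near the background, and 0 were called higher (against 15%; limma, with 1 higher and 17 lower at an unadjusted p under 0.05). The members' median change was -0.12, beside -0.02 over all tested genes. At 10 mM, 25 were called lower (54.3%, against 26.8%) and 0 higher (against 21.4%; limma, with 0 higher and 30 lower at an unadjusted p under 0.05), with a median of -0.22 beside -0.03. The same 12 genes called at 5 mM were among the 25 at 10 mM. Without mock replicate 3, or without replicate 1 of 5 mM 2-DG, 7 members were called at 5 mM. The split between lower and higher calls depended on the scaling. At 5 mM it was 13 lower and 2 higher (Psmc3 and Psmd9) after quantile normalization and 11 lower and 4 higher (Psmb5, Psmc3, Psmc4 and Psmc5) after a gene length correction. At 10 mM it was 22 lower and 3 higher (Psmb5, Psmc3 and Psmc5) after the length correction.

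Of the alpha subunits 2 of 7 were called lower at 5 mM and all 7 at 10 mM, beside 20.3% and 26.8% of all tested genes. At 10 mM their changes ran from -0.27 to -0.53. The count of 2 fell to 0 without mock replicate 3 or 5 mM replicate 1 or 3, and to 1 without mock replicate 2. At 10 mM it was 4 without mock replicate 2 or 10 mM replicate 1, and 5 to 7 on leaving out another of the 6 samples; Psma1, Psma2 and Psma4 were among the calls lost. Psma7 had 47.5, 49.8 and 46.4 FPKM in 5 mM 2-DG and 44.1, 43.5 and 38.9 FPKM in 10 mM 2-DG, against 57, 59.9 and 67.4 FPKM in mock. All 6 samples lay under mock, at -0.35 ± 0.11 and -0.53 ± 0.11 (limma, adjusted p = 0.022 and 0.0011; at 5 mM 0.091 without mock replicate 3, 0.057 without 5 mM replicate 1 and 0.069 without 5 mM replicate 3). Psma6 had 131, 138 and 130.0 FPKM in 5 mM 2-DG and 119, 129 and 128 FPKM in 10 mM 2-DG, against 151, 159 and 157 FPKM in mock, likewise without overlap (-0.23 ± 0.07 and -0.31 ± 0.07, limma, adjusted p = 0.024 and 0.0027). Its 5 mM call was lost without mock replicate 2 or 3 or 5 mM replicate 1 or 3 (adjusted p = 0.062 to 0.077). No beta subunit was called at 5 mM (limma, adjusted p = 0.07 to 0.93), and Psmb2 and Psmb3 fell at 10 mM (-0.35 ± 0.08 and -0.26 ± 0.10, limma, adjusted p = 0.0029 and 0.039). These 2 of 7 beta subunits are near the share of all tested genes called lower at 10 mM. The Psmb3 call was lost on leaving out any 1 of the 6 samples except mock replicate 1 (limma, adjusted p = 0.067 to 0.16). Psmb5 had 50.6, 54 and 61.4 FPKM in 5 mM 2-DG and 53.7, 54.7 and 49.5 FPKM in 10 mM 2-DG, against 43.1, 48.4 and 53.1 FPKM in mock. The groups overlapped and neither dose was called (0.20 ± 0.13 and 0.13 ± 0.13, limma, adjusted p = 0.25 and 0.42). Psmb1 had 173, 180 and 165 FPKM in 5 mM 2-DG and 161, 168 and 164 FPKM in 10 mM 2-DG, inside or near the mock range, and was not called (limma, adjusted p = 0.85 and 0.44).

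The ATPase subunits had a median change of 0.07 at 5 mM and -0.00 at 10 mM of 2-DG, with Psmc2 alone called as reported, at 10 mM (-0.22 ± 0.08, limma, adjusted p = 0.041; lost without mock replicate 2 or 3 or 10 mM replicate 1 or 2, at 0.07 to 0.15). Psmc5 had 140, 162 and 149 FPKM in 5 mM 2-DG and 141, 143 and 142 FPKM in 10 mM 2-DG, against 128, 138 and 144 FPKM in mock. It overlapped mock at both doses (0.13 ± 0.10 and 0.06 ± 0.10, limma, adjusted p = 0.35 and 0.68). Psmc1 had 146, 159 and 150.0 FPKM in 5 mM 2-DG and 132, 141 and 145 FPKM in 10 mM 2-DG, against 153, 152 and 158 FPKM in mock, and passed at neither dose (-0.03 ± 0.06 and -0.14 ± 0.06, limma, adjusted p = 0.77 and 0.051). Of the non-ATPase subunits 6 of 11 were called lower at 5 mM and 8 of 11 at 10 mM, beside 20.3% and 26.8% of all tested genes. At 5 mM the count was 3 without mock replicate 1 or 5 mM replicate 1, and 4 without mock replicate 2 or 3 or 5 mM replicate 3. Psmd1, Psmd12 and Psmd14 were the calls lost, and at 10 mM Psmd6 and Psmd13 each lost theirs with 4 of the 6 samples left out in turn. Psmd7 had 86.9, 88.2 and 86.2 FPKM in 5 mM 2-DG and 74.9, 76.3 and 77.4 FPKM in 10 mM 2-DG, against 96.3, 102 and 103 FPKM in mock. The 3 groups did not overlap (-0.20 ± 0.05 and -0.39 ± 0.05 against mock, limma, adjusted p = 0.0039 and 1.1e-05). Psmd3, a structural lid subunit, fell by 0.25 ± 0.05 and 0.40 ± 0.05 (limma, adjusted p = 0.0026 and 4.3e-05), and Psmd2 by 0.16 ± 0.04 and 0.21 ± 0.04 (limma, adjusted p = 0.0078 and 0.00086). Psmd8 (-0.08 ± 0.06 and -0.10 ± 0.06) and Psmd4 (-0.08 ± 0.08 and -0.12 ± 0.08) were not called (limma, adjusted p = 0.19 to 0.45).

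The deepest changes with 2-DG were outside the standard core and cap. Psmg2 had 22.9, 25.2 and 20.5 FPKM in 5 mM 2-DG and 22, 20.3 and 25.2 FPKM in 10 mM 2-DG, against 39.9, 39 and 45.6 FPKM in mock. The doses overlapped each other and lay far under mock, at 0.551 and 0.541 times its mean (log2 changes -0.83 ± 0.10 and -0.86 ± 0.10, limma, adjusted p = 3e-05 and 1.2e-05). Its partner Psmg1 had 32, 32 and 29.4 FPKM in 5 mM 2-DG and 25.9, 25.4 and 26.9 FPKM in 10 mM 2-DG, against 31.4, 34.9 and 34.8 FPKM in mock, and fell only at 10 mM by this test (-0.11 ± 0.10 and -0.36 ± 0.10, limma, adjusted p = 0.44 and 0.011). Psma8 had 2.52, 2.68 and 2.71 FPKM in 5 mM 2-DG and 1.54, 2.09 and 2.27 FPKM in 10 mM 2-DG, against 6.15, 5.29 and 5.86 FPKM in mock. These samples were separate from mock (-0.89 ± 0.13 and -1.19 ± 0.13, limma, adjusted p = 0.00014 and 5.8e-06), from 69 to 283 reads per sample over the series.
Psmb10 had 6.43, 5.81 and 7.86 FPKM in 5 mM 2-DG and 7.9, 6.16 and 6.45 FPKM in 10 mM 2-DG, against 10.2, 10.6 and 11.8 FPKM in mock, without overlap (-0.63 ± 0.14 and -0.60 ± 0.14, limma, adjusted p = 0.0028 and 0.0025). Immunoproteasome genes are abundant in macrophages, and the macrophage marker sums given above were lower with 2-DG. Psmb10 was also called lower at both oligomycin doses. There the sums were 188 to 240 FPKM at 1 nM and 218 to 230 FPKM at 10 nM, against 173 to 194 FPKM in mock. The part of macrophages in either result was not tested. Psmc3ip had 9, 7.73 and 8.08 FPKM in 5 mM 2-DG and 6.55, 7.95 and 7.87 FPKM in 10 mM 2-DG, against 11.6, 11.7 and 13.9 FPKM in mock, again lower in all 6 samples (-0.53 ± 0.15 and -0.66 ± 0.15, limma, adjusted p = 0.014 and 0.0024; 0.06 at 5 mM without mock replicate 3). No activator or inhibitor gene was called at 5 mM (limma, adjusted p = 0.1 to 0.62), and at 10 mM Psme3 and Psme4 fell by 0.17 ± 0.05 and 0.28 ± 0.09 (limma, adjusted p = 0.0063 and 0.021). The Psme4 call was lost without mock replicate 1 or 2 or 10 mM replicate 1 or 2 (adjusted p = 0.064 to 0.091). The Psme3 call was lost after quantile normalization or a length correction (0.056 and 0.097). Psme4 had 40.7, 45 and 41 FPKM in 5 mM 2-DG, overlapping mock, and 35.3, 35.6 and 39.1 FPKM in 10 mM 2-DG, under every mock sample. Psme2 was not called at either dose (-0.19 ± 0.10 and -0.14 ± 0.10, limma, adjusted p = 0.14 and 0.27).

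Side by side over the comparisons with mock, which share the mock samples, 11 members were called lower in all 4 treatments. They were Psma6, Psma7, Psmd1, Psmd2, Psmd3, Psmd7, Psmd12, Psmd14, Psmg2, Psmb10 and Psmc3ip. Of these, 6 were left without mock replicate 3 or 5 mM replicate 1, 7 without 5 mM replicate 3, and 8 without mock replicate 1 or 2. Psmb10, Psmd3, Psmd7 and Psmg2 were lost under no alternative, Psmd2 only after quantile normalization and Psmc3ip only without mock replicate 3. Another 7 were called in none as reported: Psmb1, Psmc3, Psmc6, Psmd9, Psmd10, Psme1 and Psmf1. Each of these 7 passed the test in at least 1 comparison under at least 1 alternative. Only 2 were called higher in any of the 4 comparisons as reported, Psmd8 and Psme2, both with oligomycin. Over all tested genes these joint counts were not made. The share of all tested genes lower in all 4 cannot exceed the 20.3% called lower at 5 mM 2-DG.

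The step between the oligomycin doses was smaller. In 10 nM against 1 nM oligomycin, 11 of 46 members were called lower (23.9%, against 27.6% of all tested genes) and 2 higher (4.35%, against 18.7%), so the share of lower calls as reported was near the background. The members' median was -0.11 beside -0.04 over all tested genes. Over all tested genes this split depended on scaling, with 3672 lower and 2489 higher as deposited and 3042 lower and 3347 higher after quantile normalization. That normalization called 17 members lower (37%, against 22.9% of all tested genes) and 2 higher. Without replicate 1 of 10 nM oligomycin, 8 members were called lower and 2 higher and the median was -0.01; Psma6, Psmc1 and Psmd13 lost their calls. A fit on these groups alone called 7 members. The falls that stayed without replicate 1 included Psma8 (-0.87 ± 0.13, limma, adjusted p = 0.00011; -0.70 without it), Psme4 (-0.54 ± 0.09, adjusted p = 0.00033; -0.65 without it), Psmg1 (-0.41 ± 0.10, adjusted p = 0.0049; -0.26 without it), Psmd1 (-0.32 ± 0.05, adjusted p = 0.00035; -0.36 without it) and Psme3 (-0.28 ± 0.05, adjusted p = 0.00024; -0.29 without it). Psme2 (0.26 ± 0.10, limma, adjusted p = 0.044) and its near copy Psme2b (0.42 ± 0.09, adjusted p = 0.0018) rose, by 0.39 and 0.49 without replicate 1. The Psme2 call was lost without 1 nM replicate 2 or 3 or 10 nM replicate 2 or 3 (adjusted p = 0.085 to 0.18). Of the 14 standard core subunits Psma6 alone was called (-0.21 ± 0.07, limma, adjusted p = 0.027), and not without 10 nM replicate 1 (0.079) or 1 nM replicate 1 or 3 (0.1 and 0.05).

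Between the 2-DG doses almost nothing was called. In 10 mM against 5 mM 2-DG, 1 of 46 members was lower (2.17%, against 2.45% of all tested genes) and 0 higher (against 3.41%; limma, with 6 lower and 0 higher at an unadjusted p under 0.05), and the median was -0.09 beside -0.00. The member was Psmd7, at 74.9, 76.3 and 77.4 FPKM in 10 mM 2-DG and 86.9, 88.2 and 86.2 FPKM in 5 mM 2-DG (-0.19 ± 0.05, limma, adjusted p = 0.027), and its call was lost when any 1 of these 6 samples was left out.

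The drugs were compared directly at their higher doses, which are not matched in effect. In 10 mM 2-DG against 10 nM oligomycin, 23 of 46 members were higher (50%, against 37.7% of all tested genes) and 5 lower (10.9%, against 33.2%), with a median of 0.20 beside 0.04. Without replicate 1 of 10 nM oligomycin, 19 were higher and 8 lower and the median was 0.09: Psma1, Psmb4, Psmb7 and Psmd9 lost their calls, and Psma8, Psme1 and Psmg2 became lower. Psmb5 had 53.7, 54.7 and 49.5 FPKM in 10 mM 2-DG, against 23.6, 35.7 and 34.4 FPKM in 10 nM oligomycin. The groups were far apart, at 0.75 ± 0.13 (limma, adjusted p = 9e-05; 0.57 and 4.4e-05 without replicate 1). Psmc5 had 141, 143 and 142 FPKM in 10 mM 2-DG, against 67.8, 95.8 and 91.9 FPKM in 10 nM oligomycin, a difference of the same size (0.75 ± 0.10, limma, adjusted p = 1.5e-05; 0.59 and 2.2e-06 without replicate 1).
The ATPases Psmc4 (0.60 ± 0.09), Psmc1 (0.46 ± 0.06) and Psmc3 (0.24 ± 0.06) were also higher in 2-DG (limma, adjusted p = 2.8e-05, 5.4e-06 and 0.0042), by 0.48, 0.42 and 0.16 without replicate 1. Psme4 was higher by 0.64 ± 0.09 and Psme3 by 0.57 ± 0.05 (limma, adjusted p = 2.3e-05 and 6.2e-08; 0.75 and 0.58 without replicate 1). Lower in 2-DG were Psmd8 (-0.40 ± 0.06), Psme2 (-0.39 ± 0.10), Psme2b (-0.27 ± 0.09), Psmd10 (-0.23 ± 0.07) and Psmf1 (-0.19 ± 0.06), with limma adjusted p of 4.5e-05, 0.0027, 0.016, 0.008 and 0.018; without replicate 1 the differences were -0.44, -0.52, -0.34, -0.25 and -0.24. The Psme2b call was lost without 10 mM replicate 3 or 10 nM replicate 2 (limma, adjusted p = 0.079 and 0.086), and the Psmf1 call without replicate 2 of either group (0.09 and 0.086). In all, 9 members were lower at 10 nM oligomycin, not called at 10 mM 2-DG, and higher in the direct comparison. They were Psmb4, Psmb5, Psmb7, Psmc1, Psmc4, Psmc5, Psmd5, Psmd11 and Psmg4. How many of all tested genes met the same conditions was not counted, so this set is no result particular to proteasome genes. Psmb4 and Psmb7 lost the direct call, and Psmg4 the call against mock, without 10 nM replicate 1. The direct call of Psmb4 was also lost without 10 mM replicate 1 or 2 (limma, adjusted p = 0.068 and 0.082), and that of Psmb7 without 10 mM replicate 2 (0.082). Psmg2 did not differ by this test with all samples (-0.19 ± 0.10, limma, adjusted p = 0.1; -0.30 and 0.012 without replicate 1), nor did Psmb10 (-0.08 ± 0.14, adjusted p = 0.63).

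**Figure D5:**
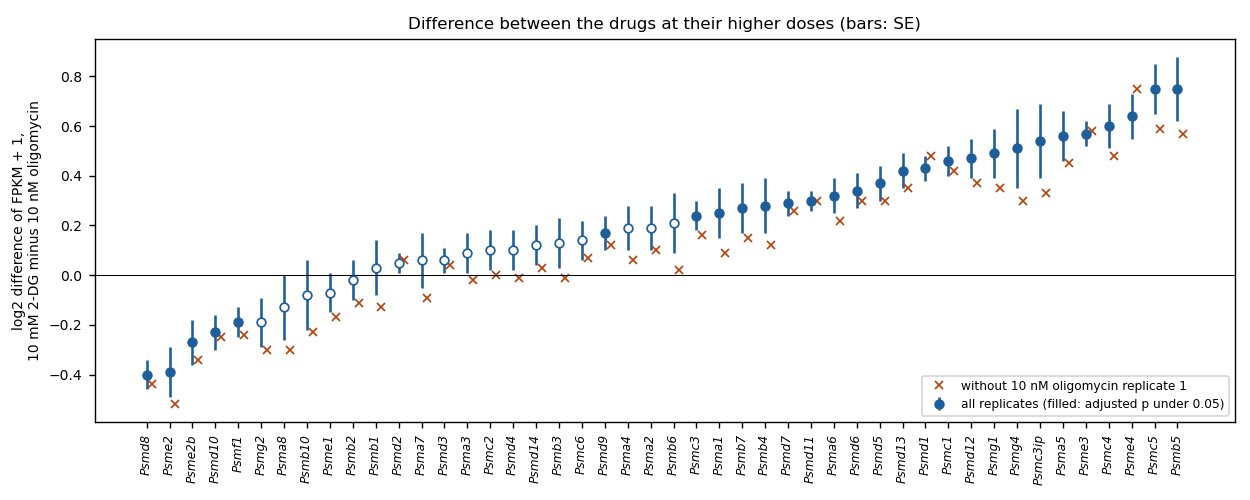
Difference in log2(FPKM + 1), 10 mM 2-DG minus 10 nM oligomycin, for each tested gene in order of size, with bars for the SE (filled: adjusted p under 0.05); crosses give the difference without 10 nM oligomycin replicate 1. Psmb5 and Psmc5 lead at 0.75 and Psmd8 and Psme2 are lowest, and most crosses lie under their points.

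Set against the promoter letters shown above, 13 of the 14 tested members with the ETS letters were called lower at 10 nM oligomycin (median -0.61), and 17 of the 24 tested members with a promoter and no such letters (median -0.44). Without replicate 1 these were 12 of 14 (median -0.55) and 15 of 24 (median -0.34). At 10 mM 2-DG these counts were 10 of 14 (median -0.21) and 10 of 24 (median -0.18). Of the 6 members with the antioxidant letters, 4 were called lower at 10 nM oligomycin (median -0.48), and 26 of 32 without (median -0.47); leaving out replicate 1 gave 3 of 6 (median -0.29) and 24 of 32 (median -0.37). Members with CCAAT were lower at 10 nM oligomycin in 12 of 13 cases, and those without in 18 of 25 (11 and 16 without replicate 1). At 10 mM 2-DG these were 10 of 13 (median -0.28) and 10 of 25 (median -0.14). For the GC box, 16 of 22 with it and 14 of 16 without were lower at 10 nM (14 and 13 without replicate 1). At 10 mM 2-DG these were 10 of 22 and 10 of 16. Over all tested genes, 41.7% were called lower at 10 nM oligomycin and 26.8% at 10 mM 2-DG with all samples. At 5 mM 2-DG, 4 of 14 members with the ETS letters were lower (median -0.08) and 4 of 24 without (median -0.14). Of all tested genes 20.3% were lower there. No test was made of these splits.

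Genes that work beside the proteasome were taken from lists chosen with earlier results of these data known. Of 9 tested partners and other components, 6 were lower and 1 higher at both oligomycin doses (6 lower and 2 higher at 10 nM without replicate 1), 3 lower and 1 higher at 5 mM 2-DG, and 5 lower and 0 higher at 10 mM 2-DG (limma; medians -0.25, -0.33, -0.08 and -0.19). Over all tested genes, 33.2% and 41.7% were lower and 29.8% and 34% higher with oligomycin, and 20.3% and 26.8% lower and 15% and 21.4% higher with 2-DG, and the lists' counts are read beside these shares. Uchl5, a deubiquitinase of the cap, had 23.4, 20.9 and 19.3 FPKM in 1 nM oligomycin and 12.9, 16.6 and 16.7 FPKM in 10 nM oligomycin. Uchl5 had 17.1, 20.9 and 15.3 FPKM in 5 mM 2-DG and 15.5, 15.2 and 19.1 FPKM in 10 mM 2-DG, against 28.3, 28.8 and 27.3 FPKM in mock. All 12 treated samples were lower (changes -0.40, -0.84, -0.65 and -0.73, each ± 0.12; -0.72 at 10 nM without replicate 1). Usp14, the other cap-bound deubiquitinase, was lower in all 4 as well (-0.25, -0.33, -0.44 and -0.51, each ± 0.07; -0.27 at 10 nM without replicate 1). Pomp, the maturation factor of the core, was lower with oligomycin (-0.54 and -0.56, each ± 0.11; -0.40 at 10 nM without replicate 1) and at 10 mM 2-DG (-0.30 ± 0.11, limma, adjusted p = 0.03), where the call was lost on leaving out any mock replicate or 10 mM replicate 1 or 3 (0.052 to 0.091). Ecpas, a proteasome-binding adaptor, was higher with oligomycin (0.27 and 0.31, each ± 0.05; 0.27 at 10 nM without replicate 1) and lower with 2-DG (-0.32 and -0.19, each ± 0.05).

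On the NFE2L1 route to proteasome genes, 5 of 10 tested genes were higher and 2 lower at both oligomycin doses (4 higher and 3 lower at 10 nM without replicate 1), and 3 were higher and 0 lower at both 2-DG doses (limma; medians 0.20, 0.14, 0.03 and 0.11). Nfe2l1 had 99.8, 103 and 102 FPKM in 1 nM oligomycin and 110.0, 98.5 and 102 FPKM in 10 nM oligomycin. Nfe2l1 had 67.8, 70.7 and 71.3 FPKM in 5 mM 2-DG and 86.4, 84.7 and 88.6 FPKM in 10 mM 2-DG, against 56.1, 56 and 55 FPKM in mock. Each treated group lay wholly above mock (0.86, 0.88, 0.32 and 0.63, each ± 0.05, limma, adjusted p = 4e-09, 5.9e-10, 0.00012 and 1.7e-07; 0.83 at 10 nM without replicate 1). Its small Maf partner Mafk was also higher in all 4 (0.79, 1.08, 0.26 and 0.58, each ± 0.05; 1.09 at 10 nM without replicate 1). Ddi2, the protease that releases active NFE2L1, was lower with oligomycin (-0.27 and -0.38, each ± 0.07; -0.43 at 10 nM without replicate 1), as was Vcp, the ATPase that pulls NFE2L1 from the membrane (-0.44 and -0.70, each ± 0.04; -0.73 at 10 nM without replicate 1). Neither was called with 2-DG (limma, adjusted p = 0.052 to 0.89). The mRNA of Nfe2l1 says nothing of the processed protein, which was not measured.

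Among 13 ubiquitin supply and shuttle genes, 4 were higher and 4 lower at 1 nM oligomycin, 3 and 6 at 10 nM (4 and 6 without replicate 1), and 1 and 1 at each 2-DG dose (limma; medians -0.07, -0.15, 0.06 and -0.00), at 1 nM near the shares over all tested genes. The shuttle Ubqln4 was lower at both oligomycin doses (-0.63 ± 0.05 and -1.10 ± 0.05, limma, adjusted p = 1.5e-07 and 1.5e-10; -1.14 at 10 nM without replicate 1), as was Ubqln2 (-0.68 ± 0.06 and -0.55 ± 0.06, adjusted p = 6.8e-07 and 2.2e-06; -0.56 at 10 nM without replicate 1). Zfand2a, a stress-induced proteasome-binding protein, was higher in all 4 treatments (0.45, 0.50, 0.47 and 0.71, each ± 0.06; 0.47 at 10 nM without replicate 1).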

How the data were processed

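RNA sequencing of 15 samples in 5 groups of 3 was used, grouped by the labels. The authors deposited 1 table of FPKM values, normalized for gene length and depth before deposit. Tools listed in the submitters' processing notes, with no roles given, are HTSeq 0.6.0, HISAT2 2.1.0 and Bowtie2 2.2.3, and the listed build is GRCm38. Whether counting used the strand is not given in the sources used here. Of the table, 1 line without a gene was left out and 26 symbols turned into dates were restored. Gene coordinates are those of the deposited table.

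From these values log2(FPKM + 1) was fitted in 1 limma model (limma 3.58.1, R 4.3.3) over all 15 samples, without covariates, on the 13284 genes reaching 1 FPKM in 3 or more samples; 18868 genes were left out. A call needs a Benjamini-Hochberg adjusted p under 0.05 over all tested genes in that comparison. Python 3.11.15, pandas 2.3.3, numpy 2.4.6 and matplotlib 3.10.9 were used for the rest. The fit was tested on simulated data. FPKM carry no counts; 95.4% to 96% of low values were whole multiples of 1 read within 0.05 of a read, which gives the depth used. No count test was run.

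The proteasome genes, gene lists and marker lists were chosen with earlier results of these data known. Shown sample by sample are the 3 largest called rises and falls against mock in each treatment, the most abundant gene of each class, and Psmb10, Psmd4, Psmc3ip, Psme4 and Psmg1; Psmb5, Psmc5, Psmd7 and Psmg3 were added after their values were seen. List genes are named from the 3 largest called rises and falls of their list in a comparison with mock. One list gene that met this is not reported here. Alternatives were another pseudocount (0.1), no filter or 5 FPKM, median ratio or quantile scaling, a gene length correction, a fit on the compared groups alone, a replicate block and leaving out each replicate.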

Additional observations from a re-analysis of the deposited data

How the results depend on the processing

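Against mock, 30 of the 34 members called at 1 nM oligomycin, 34 of 38 at 10 nM, 5 of 12 at 5 mM 2-DG and 16 of 25 at 10 mM 2-DG were called under every alternative run, and no change reversed. Leaving out 1 sample gave 7 to 12 members called at 5 mM 2-DG (12 with all samples). In a fit on the compared groups alone, 7 members were called in 10 nM against 1 nM oligomycin (13 in the fit over all samples) and 2 in 10 mM against 5 mM 2-DG (1 in the fit over all samples). In the 2-DG dose step 0 members were called with the replicate block (limma, with 5 lower and 0 higher at an unadjusted p under 0.05), and 0 to 0 on leaving out 1 sample (limma, with 3 to 8 lower at an unadjusted p under 0.05). Over all tested genes that comparison gave 779 calls, 1185 after the gene length correction and 273 to 469 on leaving out 1 sample. The cause of these shifts was not tested, except that leaving out a sample leaves fewer samples. Same-numbered replicates do not pair: 3 of 30 pairs correlated above 0.1 in their deviations (-0.238 to 0.371, against -0.35 to 0.246 for other numbers), and with the replicate block 26 members differed between the drugs (28 without it), with counts against mock as reported. Depth limits Psmg3 (17 to 43 reads) and Psmb11 (0 to 2 reads).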

Other observations

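The immunoproteasome subunits Psmb8 and Psmb9, which the selection leaves out, had 0.428 ± 0.0084 FPKM and 0.914 ± 0.0294 FPKM in mock cells (SD, n = 3), below the level at which genes were tested. Mean Psmb8 was 0.606 and 0.778 FPKM in 1 nM and 10 nM oligomycin, and 0.254 and 0.35 FPKM in 5 mM and 10 mM 2-DG. Mean Psmb9 was 0.799, 0.494, 0.169 and 0.153 FPKM in those groups. Neither gene was tested. The ETS letters split the step between the oligomycin doses as follows: in 10 nM against 1 nM oligomycin, 8 of the 14 tested members with CCGGAAG in the promoter were called lower (median -0.17), and 1 of the 24 with a promoter and no such letters (median -0.10). Without 10 nM replicate 1 these were 5 of 14 (median -0.11) and 1 of 24 (median 0.04). Over all tested genes, 27.6% were called lower in this step with all samples. The split by ETS letters was seen after the values and was not tested.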
